A study of Mus musculus with 18 samples.

Results

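The miR-29 family of the mouse is encoded by 4 hairpin loci, Mir29a, Mir29b-1, Mir29b-2 and Mir29c. They were taken by symbol from the 2009 miRNA loci of the count files, and all 4 were found. Small RNA had been sequenced from extracellular vesicles (EVs), membrane particles shed by cells, and from the adipose stromal cells (ASC) that released them. ASC are mesenchymal cells grown out of fat. The 18 libraries form 4 groups: primed EV (n = 5), naive EV (n = 5), primed ASC (n = 4) and naive ASC (n = 4). All are labelled strain NGL, adult, from adipose tissue. Primed cells had 24 h of interferon gamma, naive cells had none, and all cells were then kept for 48 h in medium with 2% serum freed of EVs. The design asked how EVs differ from their cells, and how EVs of primed cells differ from those of naive cells. Libraries are numbered here by their source names, and the titles do not always match. Primed EV 1 and primed EV 5 both carry the number 5 in their titles, and naive EV 1 and naive ASC 1 carry 1+2, while naive EV 2 carries 2. Whether these libraries share or pool a source is not stated. The labels also do not say whether replicates came from separate animals or cultures, and p-values here therefore speak only of the spread among libraries.

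A miRNA is cut from a hairpin and loaded into an Argonaute protein, where bases 2 to 8 of the mature strand, the seed, choose the messenger RNAs to be repressed. miR-29 is known for repressing genes of the extracellular matrix, among them fibrillar collagens and elastin, and it is lowered in several fibrotic tissues. In immune cells of the mouse it is also known to repress interferon gamma itself. Fat stroma is itself a source of collagen.

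The mature strands from the 3′ arm are shown because their likeness decides what the counts of each locus can hold. They are written 5′ to 3′ with the seed in capitals, from RefSeq on GRCm38.p6.
miR-29a-3p: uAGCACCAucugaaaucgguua
miR-29b-3p: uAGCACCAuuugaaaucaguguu
miR-29c-3p: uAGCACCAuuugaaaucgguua
The seed AGCACCA was found in 3 of the 1679 mature miRNA names of that table, and these are the 3 above. Counted from the 5′ end, miR-29a-3p differs from miR-29c-3p by C10U alone. miR-29b-3p differs from miR-29c-3p by A18G, G21U and U22A and is 1 base longer. Its last 6 bases are AGUGUU, a run held by 12 of 1679 mature miRNAs (0.71%) and known in human cells for directing miR-29b to the nucleus.

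The 5′ arms, shown because they tell apart the loci whose 3′ arm is shared, differ more.
miR-29a-5p: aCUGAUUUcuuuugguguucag
miR-29b-1-5p: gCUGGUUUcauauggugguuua
miR-29b-2-5p: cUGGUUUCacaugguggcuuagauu
miR-29c-5p: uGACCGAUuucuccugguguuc
Capitals again mark bases 2 to 8.

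The loci form 2 clusters. Mir29a (chromosome 6, 31062660 to 31062747, minus strand, GRCm38) overlaps no other gene in GENCODE M21, and its nearest protein-coding gene there is Klf14, 103582 bases away. Mir29b-1 (chromosome 6, 31063017 to 31063097, minus strand) lies 269 bases away and touches the edge of an exon of the long noncoding gene Gm27019. Mir29b-2 (chromosome 1, 195037040 to 195037123, plus strand) and Mir29c (chromosome 1, 195037547 to 195037634, plus strand) are 423 bases apart. Both lie in an exon of the noncoding gene A330023F24Rik and, on the opposite strand, in an exon of Cd46, which encodes a complement regulator. Counting took no account of strand, so reads of either strand there would be counted alike.

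Mir29b-1 and Mir29b-2 make the same miR-29b-3p. Their hairpins share the 25-base run below, printed to show what the loci cannot tell apart, with miR-29b-3p in it from base 3 to the end.
shared run: UCUAGCACCAUUUGAAAUCAGUGUU
A read of that mature strand therefore matches both loci. The counting command, per the file headers, carried no option for reads that map to several places, which featureCounts by default leaves out. The values of these loci are therefore not a measure of miR-29b-3p. In the files, 88 loci share a mature sequence with another locus, and 32 of them passed the filter on low counts. In the same way a miR-29a-3p read with a C10U error would read as miR-29c-3p, and how many counts at Mir29c came that way was not tested.

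Totals per library ran from 626951 to 3052942 counts in primed EV, from 613448 to 2245823 in naive EV, from 180812 to 895721 in primed ASC and from 486237 to 926183 in naive ASC. All 9 mesenchymal marker loci had counts in every group, with 69.4% to 71.5% of counts in primed EV, 66.8% to 69.9% in naive EV, 30.4% to 42% in primed ASC and 27.4% to 52.5% in naive ASC. They did not move as 1. By the test used below, of 8 tested 3 were higher and 2 lower in naive EV than in naive ASC. In primed EV against primed ASC 4 were higher and 2 lower. The liver marker Mir122 had no count in naive ASC and at most 0.00196% of counts in any library. Of 7 blood marker loci 6 are in the files, and all 6 were higher in EVs than in cells in both comparisons by that test. Of all loci tested 33.5% were higher in EVs in the naive and 35.9% in the primed comparison. The 6 blood loci are among these. The blood loci held 0.147% to 0.625% of counts in primed EV and 0.00916% to 0.0559% in primed ASC. They held 0.361% to 1.49% in naive EV and 0.0128% to 0.0214% in naive ASC. The endothelial marker Mir126a held 0.198% to 0.496% in primed EV and 0.00601% to 0.0592% in primed ASC, and 0.318% to 0.902% in naive EV and 0.0105% to 0.0288% in naive ASC. Of 5 epithelial marker loci 2 were higher and none lower in EVs in both comparisons, and that share higher is near the share of all loci. These 5 held 0.000295% to 0.0204% of counts in primed EV and 0.000716% to 0.00885% in primed ASC. They held 0.000445% to 0.123% in naive EV and 0.00165% to 0.0344% in naive ASC. The part of blood, endothelial and epithelial RNA in the miR-29 values was not tested. EV RNA was isolated with a SeraMir kit and ASC RNA with TRIzol and RNeasy columns, so the isolation method and the EV or cell source cannot be told apart.

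Mir29a carried nearly all of the family's counts. Its mean share of them was 98.1% ± 0.563 (SD, n = 5) in primed EV, 98.1% ± 0.610 (n = 5) in naive EV, 99.4% ± 0.220 (n = 4) in primed ASC and 99.2% ± 0.167 (n = 4) in naive ASC. These shares are of counts, over counted loci of similar length (88 bases for Mir29a and Mir29c, 81 for Mir29b-1 and 84 for Mir29b-2). Reads of miR-29b-3p match both miR-29b loci and are left out by the counter's default. Neither these shares nor the family totals therefore measure mature miR-29. Each EV library had a lower Mir29a share of the family than each ASC library, and all shares lay above 97%. The family as a whole took 0.459% ± 0.103 of all counts in primed EV, 0.480% ± 0.123 in naive EV, 0.733% ± 0.145 in primed ASC and 0.609% ± 0.00503 in naive ASC (SD), and EV and ASC groups overlap on this scale. Mir29a stood between place 20 and place 34 of all loci by count in the EV libraries, and between 23 and 31 in the ASC libraries.

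Levels below are in CPM, read counts divided by library totals that were first scaled by the trimmed mean of M-values (TMM). This factor takes most loci to be level between libraries. Between EVs and cells 66.1% of loci tested in the naive and 68.2% in the primed comparison differed by the test used below. The premise of TMM may therefore not hold between EVs and cells. Mir29a had 5328, 7188, 5447, 6463 and 5250 CPM in primed EV 1 to 5, and 6541, 4919, 6754, 3569 and 3880 CPM in naive EV 1 to 5. It had 7063, 5085, 4388 and 7294 CPM in primed ASC 2 to 5, and 4978, 5154, 4963 and 3896 CPM in naive ASC 1, 3, 4 and 5. On this scale all 4 groups overlap. As a share of all counts, Mir29a in every naive EV library (0.3055% to 0.594%) lay below every naive ASC library (0.5968% to 0.6081%). In order the means were 5957 ± 1441 CPM in primed ASC, 5935 ± 855 in primed EV, 5133 ± 1472 in naive EV and 4748 ± 574 in naive ASC (SD), and no neighbours in that order are parted by more than their spread.

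Mir29c was far more prominent in EVs. It had 67.6, 80.5, 124.5, 132.1 and 108.1 CPM in primed EV 1 to 5, and 89.7, 54.7, 171.4, 89.7 and 49.6 CPM in naive EV 1 to 5. In the cells it had 21.8, 10.8, 8.30 and 6.21 CPM in primed ASC 2 to 5, and 12.01, 8.24, 11.7 and 2.47 CPM in naive ASC 1, 3, 4 and 5. Every EV library lay above every ASC library, while primed and naive libraries of the same source overlap. The means were 102.6 ± 27.8 CPM in primed EV, 91.0 ± 48.7 in naive EV, 11.8 ± 6.95 in primed ASC and 8.61 ± 4.44 in naive ASC (SD). The ASC levels rest on 2 to 24 counts per library, and the EV levels on 30 to 216.

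Mir29b-1 ran the other way. It had 5.64, 4.47, 3.40, 9.74 and 10.4 CPM in primed EV 1 to 5, and 5.88, 5.94, 0.902, 1.66 and 4.96 CPM in naive EV 1 to 5. In the cells it had 15.5, 21.5, 20.8 and 11.2 CPM in primed ASC 2 to 5, and 17.2, 22.0, 36.1 and 30.9 CPM in naive ASC 1, 3, 4 and 5. Every EV library lay below every ASC library. The means were 6.73 ± 3.16 CPM in primed EV, 3.87 ± 2.41 in naive EV, 17.2 ± 4.85 in primed ASC and 26.5 ± 8.56 in naive ASC (SD). An EV library held 1 to 12 counts and an ASC library 5 to 40, and 3 counts, the limit that a count of 0 allows, came to 1.12 to 6.24 CPM in the EV libraries. Such limits and intervals cover counting error only, and not the spread among libraries. Reads were counted without molecular identifiers, so even counting error may be understated.

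Mir29b-2 was near the limit of detection everywhere, with 0 to 4 counts per library in primed EV, 1 to 6 in naive EV, 1 to 5 in primed ASC and 1 to 4 in naive ASC. It did not pass the filter on low counts. Without that filter its log2 fold change was -0.0044 in naive EV against naive ASC, -0.095 in primed EV against primed ASC, -0.17 in primed against naive EV and -0.083 in primed against naive ASC, each with an adjusted p of 1 by edgeR's quasi-likelihood test over 689 loci. Pooled over libraries its level was 2.36 CPM (95% interval 1.26 to 4.04) in primed EV, 3.08 (1.76 to 5.00) in naive EV, 3.18 (1.37 to 6.26) in primed ASC and 3.06 (1.53 to 5.48) in naive ASC, by exact Poisson intervals. The ratio of summed counts was 1.01 (95% interval 0.438 to 2.40) for naive EV over naive ASC and 0.744 (0.286 to 2.07) for primed EV over primed ASC. Differences within those bounds were not detectable with these counts. Reads of miR-29b-3p, shared with Mir29b-1, are left out by default, so these values are not a level of that strand.

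**Figure D1:**
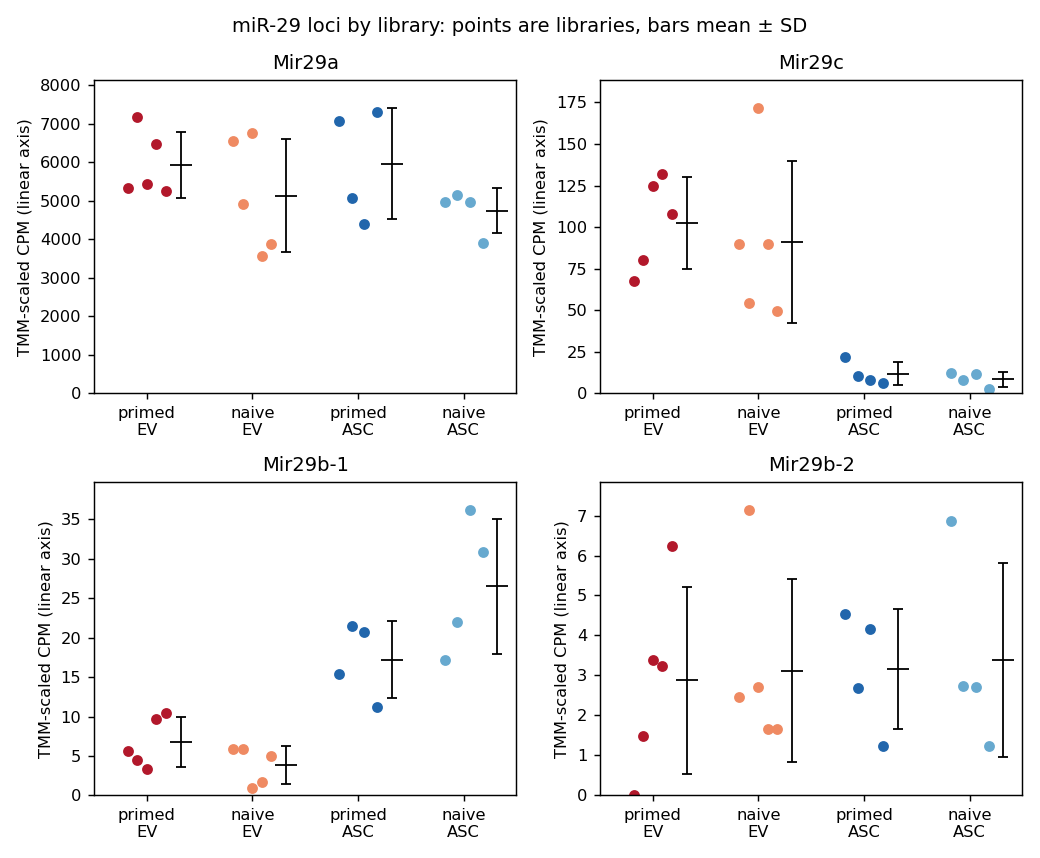
TMM-scaled CPM of the 4 miR-29 loci on linear axes, with 1 point per library, grouped as primed EV, naive EV, primed ASC and naive ASC, and bars for mean ± SD. Mir29c sits at 49.6 to 171.4 CPM in EV libraries and at 2.47 to 21.8 in ASC libraries, Mir29b-1 sits lower in EVs than in cells, and Mir29a overlaps in all groups.

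The first comparison set naive EVs against naive ASC. Mir29c was 10.5-fold higher in naive EV by edgeR's quasi-likelihood test, with a log2 fold change of 3.39 (SE 0.48, n = 5 and 4) and a Benjamini-Hochberg adjusted p of 5.09e-06. Mir29b-1 was 6.51-fold lower (-2.70, SE 0.49; edgeR adjusted p = 7.74e-05). Mir29a was at 0.11 (SE 0.21; edgeR adjusted p = 0.638), and at -0.36 when libraries were scaled by their totals alone. Of the 3 members tested, 1 was higher and 1 lower, against 66.1% of all 245 loci called in either direction (33.5% higher and 32.7% lower) and 58.4% of loci with groups that do not overlap. The count of members called is therefore near the background. With library totals alone 65 loci were higher and 116 lower, against 82 and 80 with TMM. Over all loci the log2 fold changes had a median of -0.24 and quartiles of -1.02 and 1.26. Ordered from the highest log2 fold change, Mir29c stood at place 21, Mir29a at 108 and Mir29b-1 at 237 of 245.

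Primed EVs against primed ASC, which use other libraries, gave the same directions for the 2 loci that passed. Mir29c was 8.08-fold higher in primed EV by edgeR's quasi-likelihood test, with a log2 fold change of 3.01 (SE 0.48, n = 5 and 4) and a Benjamini-Hochberg adjusted p of 1.71e-05. Mir29b-1 was 2.55-fold lower (-1.35, SE 0.50; edgeR adjusted p = 0.0236). That call was lost without primed EV 2 (-1.26, edgeR adjusted p = 0.0524) or primed EV 3 (-1.20, adjusted p = 0.0525), and with no filter on low counts (-1.25, adjusted p = 0.162). With only the primed groups fitted, Mir29b-1 was below that filter. Mir29a was at -0.0058 (SE 0.21; edgeR adjusted p = 0.986). With library totals alone it was at -0.69 (edgeR adjusted p = 0.00444), a setting that moved the median of all loci by -0.71. It put Mir29c at 2.30 and Mir29b-1 at -2.05, and left 58 loci higher and 118 lower, against 88 and 79 with TMM. Of all loci 68.2% were called here, 35.9% higher and 32.2% lower, and 53.5% had groups that do not overlap, so 2 of 3 members is again near the background. The median of all loci was 0.015.

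**Figure D2:**
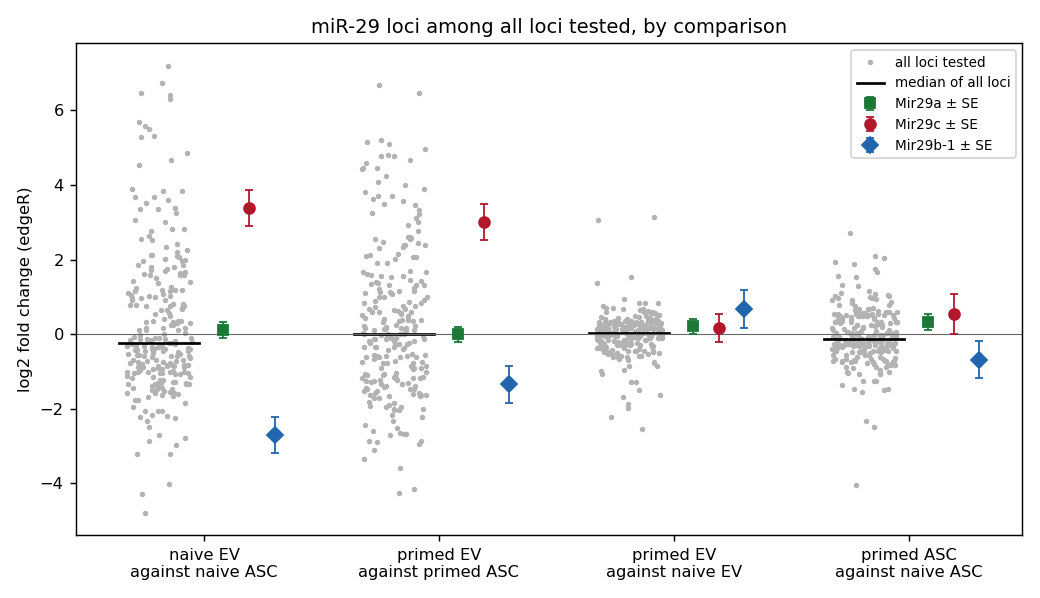
Log2 fold changes (vertical axis, edgeR) in the 4 comparisons, with grey points for the 245 loci tested, a black line at their median, and Mir29a, Mir29c and Mir29b-1 in colour with SE bars. Mir29c lies at 3.39 and 3.01 and Mir29b-1 at -2.70 and -1.35 in the comparisons of EVs with cells, and Mir29a lies near 0 in both.

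Ratios between members within a library do not depend on how libraries are scaled, so they were compared as well. Per 1000 counts of Mir29a, Mir29c had 12.7, 11.2, 22.9, 20.4 and 20.6 counts in primed EV 1 to 5, and 13.7, 11.1, 25.4, 25.1 and 12.8 in naive EV 1 to 5. It had 3.09, 2.12, 1.89 and 0.852 in primed ASC 2 to 5, and 2.41, 1.60, 2.37 and 0.634 in naive ASC 1, 3, 4 and 5. No EV library overlapped an ASC library. The ratio was 9.78-fold higher in naive EV than in naive ASC, a difference of 3.29 on the log2 scale with a pseudocount of 0.5. It was 8.42-fold higher in primed EV than in primed ASC, a difference of 3.07. Each had a two-sided exact permutation p of 0.0159, the smallest that 5 against 4 libraries allow, and a Benjamini-Hochberg adjusted p of 0.0423 over the 8 exact tests of ratios. With any 1 library left out the adjusted p of the exact permutation tests was 0.0635 to 0.0714 for the naive pair. For the primed pair it was 0.0571 to 0.0952. Each unadjusted p was then the smallest possible, 0.0286 or 0.0357, since groups that do not overlap stay apart when a library is removed. The 3′ strands of these 2 loci differ by C10U alone, but the counts take in both arms. This ratio is of locus counts and not of mature strands.

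Mir29b-1, which shares a cluster with Mir29a, had 1.06, 0.622, 0.623, 1.51 and 1.98 counts per 1000 of Mir29a in primed EV 1 to 5, and 0.900, 1.21, 0.134, 0.465 and 1.28 in naive EV 1 to 5. It had 2.19, 4.23, 4.73 and 1.53 in primed ASC 2 to 5, and 3.45, 4.26, 7.28 and 7.92 in naive ASC 1, 3, 4 and 5. The naive groups do not overlap, and primed EV 5 lay above primed ASC 5. The ratio was 7.25-fold lower in naive EV than in naive ASC (exact permutation p = 0.0159, adjusted p = 0.0423 over the 8 tests, and 0.0635 to 0.0714 with any 1 library left out). Between primed EV and primed ASC it was 2.64-fold lower (exact permutation p = 0.0317, adjusted p = 0.0635), which misses the threshold. Since reads of miR-29b-3p match both miR-29b loci, counts of Mir29b-1 and Mir29a need not hold the same arms, and this ratio is of locus counts and not of mature strands.

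**Figure D3:**
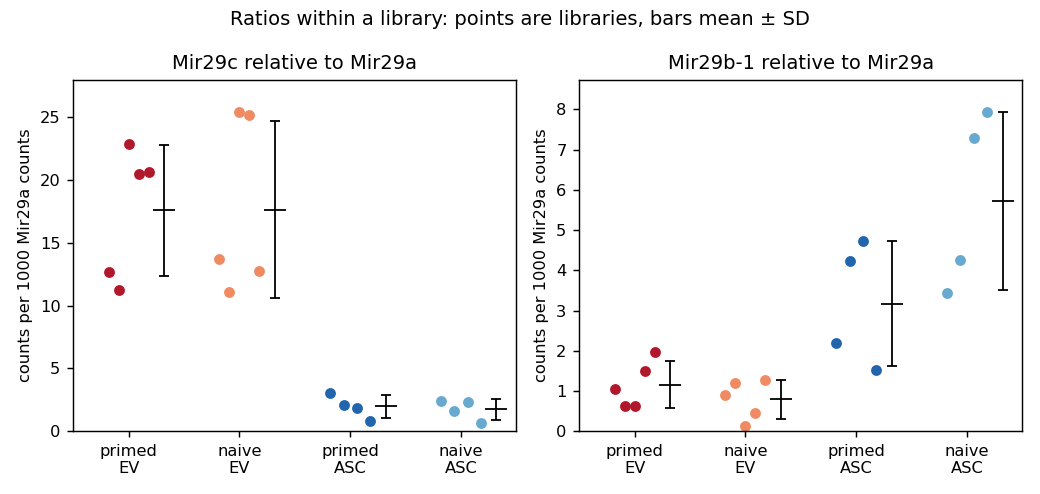
Counts of Mir29c (left) and Mir29b-1 (right) per 1000 counts of Mir29a in the same library, with 1 point per library and bars for mean ± SD. EV libraries hold 11.1 to 25.4 Mir29c counts per 1000 and ASC libraries 0.634 to 3.09, while Mir29b-1 is lower in naive EV than in naive ASC.

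No member passed in either test of interferon gamma priming by edgeR's quasi-likelihood test. None of the 3 had an unadjusted p under 0.05, against 25 of all 245 loci for EVs and 57 for ASC. Finding none among 3 members is near those shares. DESeq2 called none of those it gave an adjusted p, which leaves out Mir29b-1 in ASC. Between primed EV and naive EV, Mir29a was at 0.21 (SE 0.20), Mir29c at 0.17 (SE 0.38) and Mir29b-1 at 0.67 (SE 0.51), with edgeR adjusted p of 0.704, 0.891 and 0.673, and all 3 pairs of groups overlap. With library totals alone Mir29a and Mir29c were at -0.063 and -0.082. Only 2 of 245 loci (0.816%) passed there and 2.45% had groups that do not overlap. The ratio of Mir29c to Mir29a differed by 0.026 on the log2 scale (exact permutation p = 0.984), and that of Mir29b-1 to Mir29a by 0.59 (exact permutation p = 0.413).

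Between primed ASC and naive ASC, Mir29a was at 0.33 (SE 0.22), Mir29c at 0.55 (SE 0.53) and Mir29b-1 at -0.68 (SE 0.49), with edgeR adjusted p of 0.406, 0.559 and 0.415, and the groups again overlap. Of all loci 25 (10.2%) passed, 13 higher and 12 lower (17 and 2 with TMMwsp scaling, 18 and 5 with relative log expression), and 11.4% had groups that do not overlap. Without primed ASC 2, the library with 24 counts of Mir29c, Mir29c was at -0.049. The ratio of Mir29c to Mir29a differed by 0.24 on the log2 scale (exact permutation p = 0.600) and that of Mir29b-1 to Mir29a by -0.87 (exact permutation p = 0.171), where 4 against 4 libraries allow no p under 0.0286.

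To compare the responses to priming, the effect in ASC was taken from that in EVs, which gave -0.12 (SE 0.29) for Mir29a, -0.38 (SE 0.64) for Mir29c and 1.35 (SE 0.70) for Mir29b-1. Mir29b-1 had an unadjusted p of 0.069 and an adjusted p of 0.457 by edgeR's quasi-likelihood test. No locus passed this test (0.00% of 245), while 26 had an unadjusted p under 0.05, and DESeq2 called 3.

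Other loci followed the members across libraries to different degrees. Pearson's r of log2 CPM over the 18 libraries is given as a description, since the libraries share the split into EVs and cells. For Mir29c the highest r were 0.958 with Mir24-2, 0.955 with Mir101a and 0.948 with Mir30e. For Mir29b-1 they were 0.880 with Mir3095, 0.874 with Mir1981 and 0.840 with Mir3102. Mir29a reached 0.578 with Mir130a and 0.561 with both Mir221 and Mir10b. Once group means were subtracted, Mir29a reached 0.871 with Mir34c, 0.809 with Mir130a and 0.716 with Mir221, Mir29c reached 0.761 with Mir143, 0.690 with Mir22 and 0.687 with Mir145a, and Mir29b-1 reached 0.530 with Mir3095, 0.511 with Mir8112 and 0.449 with Mir218-1. Mir24-2 and Mir218-1 each share a mature sequence with another locus, so their counts carry the same limit as those of the miR-29b loci.

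Pairs of members differed in how they moved together, and Mir29c and Mir29b-1 ran opposite ways. Mir29a and Mir29c had an r of 0.251 over the 18 libraries and 0.456 after group means were subtracted. Mir29a and Mir29b-1, of the same cluster, had -0.15 and -0.24, and Mir29c and Mir29b-1 had -0.84 and -0.30.

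Other miRNAs linked to fibrosis were read beside the family, from lists drawn up from general knowledge. Of 8 loci linked to more fibrosis, 6 were tested. In naive EV against naive ASC 2 were higher and 1 lower, with a list median of 0.17 against -0.24 for all loci, of which 33.5% were higher and 32.7% lower, so the share higher is near the background. In primed EV against primed ASC 4 were higher and 1 lower, with a list median of 1.12 against 0.015 for all loci, of which 35.9% were higher and 32.2% lower. The mesenchymal marker list holds 4 of these 8 loci. Mir192, known from kidney fibrosis, was higher at 2.00 (SE 0.33) in naive EV, with 978 ± 323 CPM in naive EV and 244 ± 117 in naive ASC (SD). Mir214, an abundant miRNA of fibroblasts, was lower at -2.17 (SE 0.23), with 1448 ± 268 CPM in naive EV and 6505 ± 2613 in naive ASC. Mir21a, which is raised in injured tissue, was higher at 3.07 in naive EV and at 3.58 in primed EV. In primed EV against primed ASC, Mir192 was higher at 2.455 (SE 0.34) and Mir214 lower at -2.23 (SE 0.23).

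Of 19 loci linked to less fibrosis, the side on which miR-29 is placed, 14 were tested, and the lists of epithelial, muscle and blood markers hold 5, 2 and 1 of the 19. In each comparison of EVs with cells 7 were higher and 1 lower, with list medians of 0.93 for the naive and 1.30 for the primed pair, where 33.5% and 35.9% of all loci were higher. Mir101a was higher at 4.54 (SE 0.35), with 1278 ± 314 CPM in naive EV and 55.6 ± 31.0 in naive ASC, and Mir150, a lymphocyte miRNA that is also on the blood list, at 4.67 (SE 0.54). In primed EV Mir101a was at 4.43 (SE 0.35) and Mir101b at 4.24 (SE 0.34), and Mir26a-2 was lower at -1.95 (SE 0.62) with 3.41 ± 2.67 CPM in primed EV and 12 ± 3.56 in primed ASC. That primed EV level lies within the 1.12 to 6.24 CPM that 3 counts came to there. Mir26a-2 shares its mature miR-26a-5p with Mir26a-1, so its counts are not a measure of that strand. In the priming comparisons of EVs and of ASC no locus of either list passed by edgeR's quasi-likelihood test. Of each list 1 locus had an unadjusted p under 0.05 by edgeR in EVs and 1 in ASC. Over all 245 loci 25 had one in EVs and 57 in ASC. DESeq2 called 2 loci of the list linked to less fibrosis in ASC and none otherwise. Over all loci it called 5 in EVs and 40 in ASC.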

How the data were processed

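Small RNA libraries of 4 groups were analysed, 1 deposited file per library. The authors deposited raw read counts per annotated miRNA hairpin locus, not mature strands, with no normalization. Per the file headers the counter was featureCounts 1.5.3, run unstranded on miRNA genes from Ensembl release 76. The submitters' processing notes list featureCounts 1.45 instead, with STAR 2.0.4, Subread, bcl2fastq and the build GRCm38. How reads were trimmed, selected by length and aligned is not given in the sources used here. Each library took 5 microlitres of RNA into a TruSeq Small RNA preparation, per the labels' protocols.

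Of 2009 loci, 1899 matched GENCODE M21 by identifier, and 20 without a miRNA symbol took the RefSeq symbol at the same place. Coordinates are those of the files. Mir29a and Mir29c have the same bounds in GENCODE M21, while Mir29b-1 and Mir29b-2 are a few bases shorter there.

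Counts were analysed with edgeR 4.0.16, limma 3.58.1 and DESeq2 1.42.0 in R 4.3.3. filterByExpr by group kept 245 loci, 3 of them miR-29 loci. TMM scaling and 1 quasi-likelihood model with a mean per group over all 18 libraries gave 5 contrasts, adjusted by Benjamini-Hochberg over the 245 loci at a threshold of 0.05. The standard error (SE), which is approximate, is the size of the log2 fold change divided by the root of its F value. CPM use TMM-scaled totals, and r used log2 CPM with a prior count of 2. Ratios of counts plus 0.5 were compared by exact two-sided permutation tests of mean log2 ratios in scipy 1.17.1. Pairs with Mir29b-2, below the filter, were left out. Both steps were run on simulated data, where the ratio step used Poisson counts with no added spread among libraries. How the ratio test fares at the spread of these libraries was therefore not tested.

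The members, lists and tests were chosen with earlier results of these data known. Text names all members, the 3 loci most like each tested member, and of the fibrosis lists the 2 largest changes each way per comparison among loci that passed with groups that do not overlap. Alternatives were other scalings (relative log expression, TMMwsp, library totals), no filter, DESeq2, limma-voom, only the groups compared, replicate blocks by 2 numberings, and each library left out.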

Additional observations from a re-analysis of the deposited data

Results flagged for a closer look

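In 28 sets of 4 or 5 libraries, 3 libraries stood apart from the rest of their group by more than Dixon's 95% critical value, where chance flags about 1 set in 20. Mir29a was at 3896 CPM in naive ASC 5, below the 4963 to 5154 CPM of the other naive ASC libraries. Mir29b-2 was at 7.13 CPM in naive EV 2, which is 6 counts. The family took 0.639% of counts in primed EV 2, the deepest library.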

How the results depend on the processing

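Each fitted value was recomputed under 8 or 9 alternatives and 18 fits without 1 library. Calls of Mir29c in both comparisons of EVs with cells and of Mir29b-1 in naive EV against naive ASC held in all of these, with log2 fold changes under the alternatives from 2.91 to 3.55 (Mir29c, naive pair), 2.30 to 3.10 (Mir29c, primed pair) and -3.17 to -2.49. Fitting only the groups compared left Mir29b-1 below the filter in primed EV against primed ASC and in primed against naive EV, and Mir29c below it in primed against naive ASC. DESeq2 gave no adjusted p for Mir29b-1 in primed against naive ASC. A pseudocount of 1 changed no ratio call.

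Library totals alone put Mir29a at -0.36 in naive EV against naive ASC, at -0.69 with a call in primed EV against primed ASC, and at -0.063 in primed EV against naive EV, where Mir29c was at -0.082. Other scalings moved the median of all loci by at most 0.26. Without a filter Mir29a was at 0.13 and Mir29b-1 at -1.25 without a call in primed EV against primed ASC. There 2 miR-29 loci passed, but 1 without a filter and 1 with only the groups compared. The cause of these changes was not tested, except that Mir29b-1 was below the filter with only the groups compared. Over all loci, passing counts for primed against naive EV were 1 with library totals or TMMwsp, 8 without a filter, 5 with DESeq2 and 7 with titles as the replicate block. For primed against naive ASC they were 40 with DESeq2 and 15 with only the groups compared, and for the difference of priming effects 3 both without a filter and with DESeq2.

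Without 1 library each, Mir29a ranged from -0.020 to 0.25 (naive EV against naive ASC), -0.22 to 0.091 (primed EV against primed ASC) and -0.44 to 0.0054 (difference of priming effects), Mir29b-1 from -1.55 to -1.20 (primed EV against primed ASC), and Mir29c from -0.049 to 0.83 (primed against naive ASC) and -0.74 to 0.14 (difference of priming effects). miR-29 loci passing in primed EV against primed ASC were 1 to 2. All loci passing ranged from 1 to 8 for priming in EVs (8 without primed EV 2, 4 without naive EV 1, and 1 without any of primed ASC 2 to 5, naive ASC 1 or naive ASC 3). They ranged from 6 to 33 for priming in ASC (6 without naive ASC 3 or naive ASC 4, 11 without primed ASC 3 and 12 without primed ASC 4), and from 0 to 1 for the difference (1 without naive ASC 5). Ratios of Mir29b-1 to Mir29a ranged from -3.10 to -2.38 in naive EV against naive ASC. Ratios of Mir29c to Mir29a ranged from 2.92 to 3.49 and from 2.70 to 3.29 in the naive and primed pairs, from -0.12 to 0.18 for priming in EVs and from -0.13 to 0.61 in ASC. The 3 ratio calls have adjusted p above 0.05 without any 1 library, by exact permutation tests whose smallest p is then 0.0286 or 0.0357.

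Replicate numbers were not taken as pairs in the main fit, since correlations of same-numbered libraries ran from -0.16 to 0.52, and not every library correlated best with its own number. By source name, 3 of 4 naive EV libraries and 2 of 4 primed EV libraries matched their own-numbered ASC library best. The same held for 2 of 5 primed EV against naive EV and 2 of 3 primed ASC against naive ASC. Pairing of some libraries is therefore possible, and blocks were fitted as alternatives. With the block by title number Mir29a was at 0.017 in primed EV against primed ASC. Both blocks left every fitted miR-29 call as it was. Permuted within pairs as a replicate block, the ratio differences were -3.06 (Mir29b-1, naive pair), 3.43 and 3.17 (Mir29c, naive and primed pairs), each with an exact permutation p of 0.125, the smallest that 4 pairs allow.

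Counts were low for Mir29b-2 throughout, for Mir29b-1 in EVs and for Mir29c in cells. At the miR-29b loci reads of the shared miR-29b-3p are left out by default. The part of depth in their low counts was not tested.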
